A study of Mus musculus with 8 samples.

Results

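Among the 27179 Entrez Gene identifiers counted in sorted bone marrow B-cell progenitors, 27 were at least 4 times higher in Erg fl/fl preB cells than in both earlier stages. These preB-high genes were chosen by measured values. Each had a mean of at least 10 CPM (the counts of a gene scaled to the total of its library) in preB cells, and that mean was at least 4 times the means in proB and in pre-proB cells. A mean of at least 10 CPM in preB cells was reached by 8765 identifiers. Symbols of immunoglobulin variable genes and light-chain constant genes were to be left out, and 0 genes were removed for that reason. The 27 comprised 23 protein-coding genes, 2 long noncoding RNA genes, 1 immunoglobulin J segment and 1 identifier for which no symbol was found, and the 26 with a symbol lay on 15 chromosomes.

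RNA was sequenced from 4 sorted populations with 2 biological replicates each. Pre-proB, proB and preB cells came from Erg fl/fl mice, which carry floxed alleles of the ETS-family transcription factor Erg and no Cre. The remaining population, called Erg-deficient or mutant here, was sorted as pre-proB from Rag1Cre T/+;Erg Δ/Δ animals, whose Rag1Cre transgene acts from common lymphoid progenitors onward, in the B and the T lineage. Controls and Erg-deficient mice therefore differ by the Cre allele too. The mice were between 7 and 10 weeks old. The preB cells were sorted as B220+ CD43- cells without surface IgM or IgD, the proB cells as CD43+ CD24+ and the pre-proB cells as CD43+ CD24-, with NK1.1 and CD11c excluded at every stage. The mutant libraries played no part in choosing the 27 genes, whereas the Erg fl/fl pre-proB libraries did.

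B cells assemble their antigen receptor in steps. In pre-proB and proB cells the heavy-chain locus is rearranged, and a productive heavy chain pairs with the surrogate light chain, encoded by Igll1, Vpreb1 and Vpreb2, to form the pre-B-cell receptor. Signals from that receptor drive division and are followed by a resting small preB stage, in which CD43 and the surrogate light chain are lost, CD25 and CD2 appear at the surface, and the light-chain loci are rearranged. Expression of genes known from mature B cells, such as those for CD20 and CD40, also rises in this window.

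Sequences at the starts of these genes were read from the reference. RefSeq promoters on GRCm38.p6, each with 250 bases before and 50 after a transcript start, were found for 19 of the 27 genes, 23 promoters in all, among 32851 in the table. The 4 shown belong to the member with the highest preB level per kilobase (Polm), the preB surface marker CD25 (Il2ra), and Reln and Col5a3, which had few reads in mutant pre-proB cells. Capitals mark matches, on either strand, to the core of Ebf1 sites (CCCNNGGG), to an ETS site (GGAAGT) and to an Ikaros site (TGGGAA), and the first Ebf1-core match of Polm overlaps its ETS match. The Polm promoter (chr11:5837967-5838266, minus strand), the Il2ra promoter (chr2:11642542-11642841, plus strand), the Reln promoter (chr5:22344656-22344955, minus strand) and the Col5a3 promoter (chr9:20815018-20815317, minus strand) read as follows, 5′ to 3′.
Polm: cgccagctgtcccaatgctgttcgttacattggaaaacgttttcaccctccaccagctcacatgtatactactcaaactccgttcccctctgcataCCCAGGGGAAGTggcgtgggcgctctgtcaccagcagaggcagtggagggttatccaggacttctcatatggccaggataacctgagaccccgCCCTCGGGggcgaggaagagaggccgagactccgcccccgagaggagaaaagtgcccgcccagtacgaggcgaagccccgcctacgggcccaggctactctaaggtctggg
Il2ra: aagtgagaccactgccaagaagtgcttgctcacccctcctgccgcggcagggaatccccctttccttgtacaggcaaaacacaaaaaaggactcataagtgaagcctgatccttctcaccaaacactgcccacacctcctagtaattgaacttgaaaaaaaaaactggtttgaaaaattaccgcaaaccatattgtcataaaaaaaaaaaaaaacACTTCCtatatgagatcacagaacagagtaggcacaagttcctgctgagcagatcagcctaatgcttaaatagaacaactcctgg
Reln: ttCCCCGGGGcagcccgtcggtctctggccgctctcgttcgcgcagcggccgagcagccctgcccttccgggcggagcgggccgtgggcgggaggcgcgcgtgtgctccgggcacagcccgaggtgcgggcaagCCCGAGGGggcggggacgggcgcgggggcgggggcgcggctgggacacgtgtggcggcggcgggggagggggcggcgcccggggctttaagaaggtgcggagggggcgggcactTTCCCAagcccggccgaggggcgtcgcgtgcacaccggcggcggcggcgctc
Col5a3: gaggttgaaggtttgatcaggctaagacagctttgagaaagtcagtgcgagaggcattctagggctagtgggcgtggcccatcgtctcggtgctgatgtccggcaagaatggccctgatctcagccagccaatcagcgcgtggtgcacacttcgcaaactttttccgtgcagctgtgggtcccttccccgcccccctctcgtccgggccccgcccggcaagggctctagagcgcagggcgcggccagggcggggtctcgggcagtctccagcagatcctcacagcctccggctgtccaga

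The Ebf1 core CCCNNGGG, which reads alike on both strands, was present in 10 of the 23 promoters of preB-high genes (43.5%) and in 13.7% of all promoters. By gene, 9 of 19 preB-high genes (47.4%) and 15.4% of 27025 genes had it in at least 1 promoter, namely Cd55, Fosb, Islr2, Lipc, Pde4c, Polm, Rbm24, Reln and Rgs16 among the former. The motif is rich in G and C, and promoters with it had a median G+C content of 61.8% among the preB-high genes and 61.3% in the whole table, whereas the medians of all 23 and of all 32851 promoters were 55.7% and 52.7%. The core flanked by T before and A after it was in 0 of the 23 promoters and in 0.904% of all. Among the other motifs, GGAAGT was in 21.7% of the preB-high promoters and 23.8% of all, the E-protein site CAGGTG in 17.4% and 20.2%, and TGGGAA in 26.1% and 25.6%. The octamer ATTTGCAT and the Fox site TGTTTAC were each in 4.35% of the preB-high promoters, against 1.74% and 3.65% of all, and the Runx site TGTGGTT was in 0 against 5.27%. These matches describe the letters of the windows and were not tested.

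Library totals ranged from 15565381 to 18457632 counts, so 3 counts corresponded to between 0.163 and 0.193 CPM. Erg itself had 69.2 and 24.6 CPM in control pre-proB and 2.39 and 2.46 CPM in Erg-deficient pre-proB cells. Defining genes of the sorted stages followed the labels. Kit, a receptor of early progenitors, was at 32.6 and 40.7 CPM in proB and 3.34 and 4.76 CPM in preB cells, and Igll1 at 716 and 654 against 104 and 157 CPM. The pre-proB libraries of both genotypes also carried RNA of plasmacytoid dendritic markers, whose 8 genes summed to between 12681 and 14668 CPM there and to between 637 and 993 CPM in proB and preB libraries. Ly6d, Irf8 and Tcf4 made up most of the proB and preB sums. Siglech, another gene of the list, was at 3860 and 3711 CPM in control pre-proB, 48.7 and 59.5 CPM in proB and 11.3 and 11.7 CPM in preB libraries. The control pre-proB libraries differed from each other in B-lineage RNA, since the 8 proB markers summed to 2131 CPM in replicate 1 and 1212 CPM in replicate 2, and the 27 genes had a median ratio of replicate 1 to replicate 2 of 1.25.

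**Figure D1:**
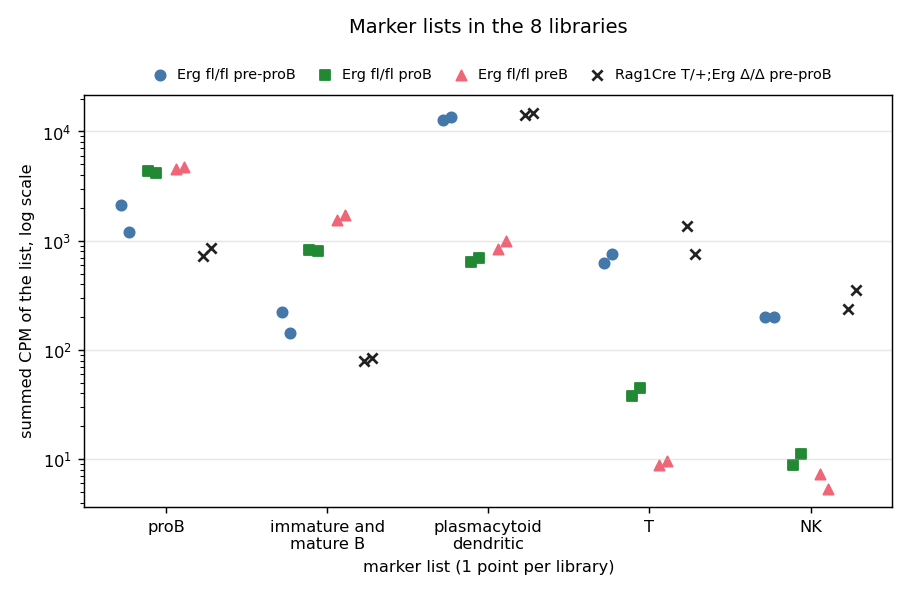
Summed CPM (vertical axis, log scale) of 5 marker lists (horizontal axis) in each of the 8 libraries, 1 point per library. The plasmacytoid dendritic list lies between 12681 and 14668 CPM in the pre-proB libraries of both genotypes and between 637 and 993 CPM in proB and preB libraries, and the proB list lies between 731 and 863 CPM in the Erg-deficient libraries (crosses). Ly6d, Irf8 and Tcf4 make up most of the plasmacytoid dendritic sums in proB and preB libraries.

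The 27 genes summed to 3002 and 3107 CPM in the preB libraries, 615 and 596 CPM in proB, 138 and 129 CPM in control pre-proB and 165 and 111 CPM in Erg-deficient pre-proB libraries. In all 27 genes both preB libraries lay above the other 4 Erg fl/fl libraries, and replicates of preB cells differed by a median of 1.11-fold and by at most 1.39-fold. These stage values chose the genes and are given as a description, without a test.

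Surface molecules known from later B cells or from homing made up 7 of the 27 genes. Il2ra (chr2:11642792-11693194), the gene of CD25 and the classical marker of small preB cells, was at 6.49 and 5.19 CPM in control pre-proB, 70.2 and 69.1 CPM in proB and 295 and 310 CPM in preB libraries. Ms4a1 (chr19:11249679-11266149), which encodes the B-cell antigen CD20, was at 7.84 and 6.37, 77.7 and 84.8, and 299 and 378 CPM in the same order. The proB mean was 11.9 times the pre-proB mean for Il2ra and 11.4 times for Ms4a1, so both were already well above pre-proB at the proB stage. Cd2, an adhesion molecule and the other surface marker of the preB transition, was at 3.79 and 4.66, 24.0 and 22.1, and 120 and 130 CPM. Cd55, which protects cells from complement, had preB values of 95.7 and 95.9 CPM. Cd40, the receptor for T-cell help, had 42.6 and 47.0 CPM in preB cells, and Fcrl1, an Fc receptor-like B-cell surface protein, had 63.4 and 71.1 CPM. Cnr2, the cannabinoid receptor that takes part in B-cell retention, went from 4.30 and 4.19 CPM in pre-proB to 12.1 and 12.8 in proB and 67.2 and 80.6 in preB libraries. The libraries of neighbouring stages did not overlap in any of these 7 genes, again a description without the share over all genes.

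Antigen-receptor assembly was represented by Polm, a gene of the joining step, and Iglj1, a segment of a receptor locus. Polm (chr11:5827860-5838832), DNA polymerase mu, fills in ends during immunoglobulin light-chain joining. It was at 21.6 and 25.8 CPM in control pre-proB, 126 and 113 CPM in proB and 488 and 480 CPM in preB libraries. Per kilobase of exon, which allows genes to be set beside each other, Polm had the highest preB level of the 23 members with an exon length, 132 ± 1.55 CPM per kilobase (SD, n = 2). Iglj1, a J segment of the lambda light-chain locus at chr16:19063225-19063262, had 10.9 and 15.1 CPM in preB and 1.49 and 1.30 CPM in proB libraries, and its preB mean was 9.35 times the proB mean, the largest such ratio of the 27. An antisense gene, 2010309G21Rik, overlaps it, and no source used here states whether counting used strand, so the reads cannot be assigned to either strand.

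Signalling molecules had a wide range of starting levels. Socs1, an inhibitor of cytokine signalling, went from 2.89 and 4.13 CPM in pre-proB to 6.91 and 6.34 in proB and 27.3 and 30.6 in preB libraries. Pde4c, which breaks down cyclic AMP, had 1.54 and 0.767, 9.54 and 8.56, and 62.9 and 56.8 CPM. Rgs16, which turns off G-protein signals, had 12.8 and 13.6 CPM in preB cells, and Ret, a receptor kinase for ligands of the GDNF family, had 17.7 and 18.8 CPM. Ret was at 2.63 and 0.884 CPM in pre-proB and 2.40 and 2.71 CPM in proB libraries, which overlap. Fosb, an immediate-early AP-1 subunit, was the member with the lowest ratio of proB to pre-proB, 0.927, and varied between replicates in the earlier stages (1.16 and 3.18 CPM in pre-proB, 1.31 and 2.71 CPM in proB, 14.5 and 10.5 CPM in preB). Fgd6, an exchange factor for the GTPase Cdc42, was at 11.0 and 9.14, 15.4 and 15.4, and 70.9 and 67.8 CPM.

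Genes better known from other tissues included the highest of all. Col5a3 (chr9:20770050-20815117), a collagen V chain, was at 2.18 and 1.83 CPM in control pre-proB, 73.2 and 63.6 CPM in proB and 523 and 485 CPM in preB libraries, the highest preB CPM of the 27. Reln (chr5:21884454-22344705), the secreted glycoprotein reelin known from neuronal migration, was at 1.80 and 1.77, 33.8 and 25.0, and 252 and 229 CPM. Reln has a long transcript, and per kilobase of exon its preB level of 10.1 ± 0.694 (SD, n = 2) was below the 74.0 ± 4.01 (SD, n = 2) of Col5a3. Klhl14, a BTB-kelch protein, had 91.1 and 97.4 CPM in preB cells, and Rbm24, an RNA-binding regulator of splicing, had 54.5 and 50.7 CPM. Rbm24 had the largest ratio of proB to pre-proB of the 27, at 55.3, from 0.321 and 0.118 CPM in pre-proB to 12.9 and 11.4 CPM in proB libraries. Lipc, hepatic lipase, had 13.0 and 17.2 CPM in preB cells, Islr2, a leucine-rich repeat membrane protein, 17.4 and 21.0 CPM, and Etnk2, an ethanolamine kinase, 11.3 and 13.0 CPM. The E3 ubiquitin ligase gene Neurl3 was at 13.8 and 9.79, 24.6 and 27.4, and 114 and 131 CPM.

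The remaining members were noncoding or without a symbol. The long noncoding RNA gene Gm20743 was at 12.3 and 3.95 CPM in control pre-proB cells, a difference of 3.12-fold between replicates, and at 12.9 and 12.1 CPM in proB and 61.1 and 46.6 CPM in preB. BE692007, which lies antisense to Ms4a6c, had 20.7 and 18.3 CPM in preB cells. The identifier 100628579 had 11.3 and 10.9 CPM there, the lowest preB mean of the 27. Islr2 overlaps Islr on the same strand, and antisense transcripts are annotated at Ms4a1, Cd55, Rgs16, Gm20743, Klhl14 and Reln, so reads of these genes may include those of the partner.

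**Figure D2:**
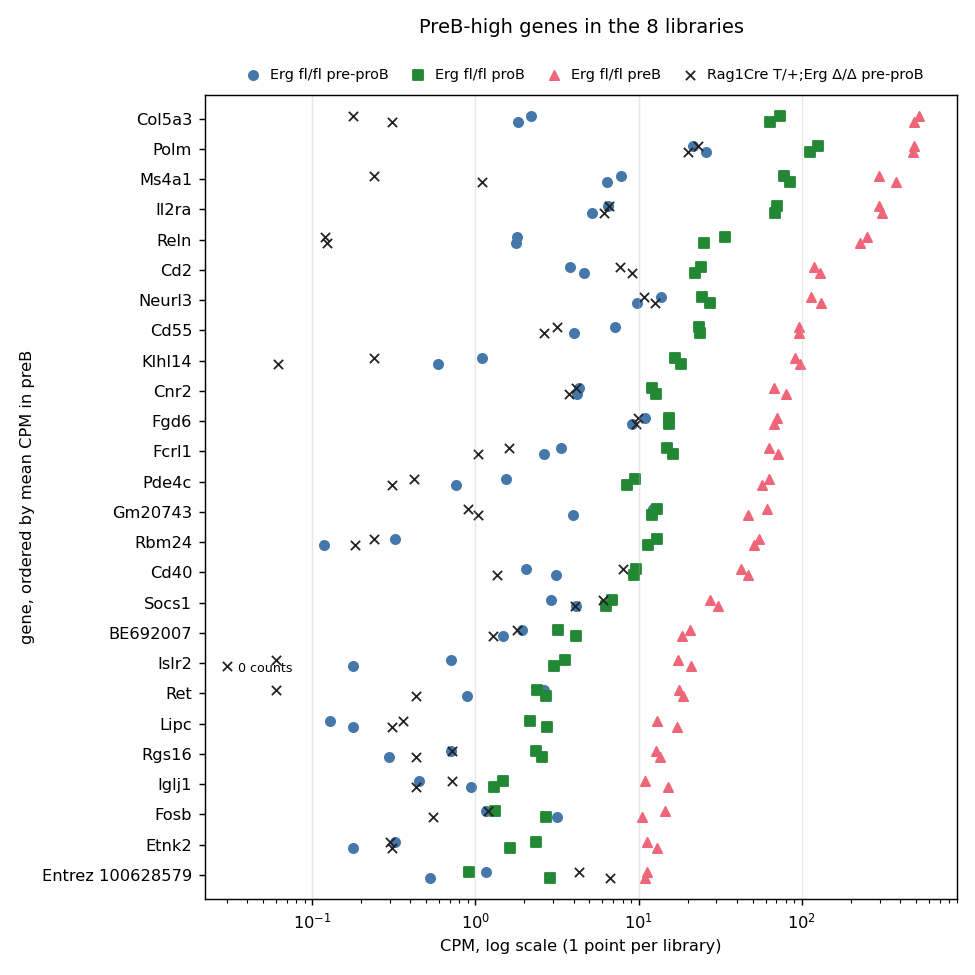
CPM (horizontal axis, log scale) of 26 of the 27 genes (vertical axis, ordered by preB mean) in the 8 libraries, 1 point per library, with the single library without a count drawn at the left edge. In every gene shown the preB points lie to the right of all others, and the spacing of pre-proB and proB points ranges from overlap, as in Ret, to well apart, as in Col5a3.

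Although chosen for their preB level, most of the 27 genes were already higher in proB than in pre-proB cells, so a description as genes that first rise in preB cells held for a minority. The ratio of the proB to the pre-proB mean was at least 4 in 15 genes, between 2 and 4 in 5 and under 2 in 7, with a median of 4.88. In 22 genes both proB libraries lay above both pre-proB libraries, a description given without the share over all genes and not read as a result about these genes. The plasmacytoid dendritic markers summed to 12681 and 13455 CPM in control pre-proB and to 637 and 700 CPM in proB libraries. The part of cell composition in these ratios was not tested. Among those with a ratio under 2 were Fgd6, Gm20743, Socs1, Ret, Iglj1 and Fosb. The step from proB to preB was more even, with a median ratio of 5.39 and a range from 4.05 to 9.35. The genes just inside the threshold of 4 were Cd55 (4.05), Polm (4.06) and Ms4a1 (4.17), and those just outside it were Rasgrp1 (3.99), Sertad4 (3.92) and the identifier 19791 (3.86). Just inside the limit of 10 CPM lay genes with preB means of 11.1, 12.2 and 12.5 CPM, and just outside it lay 9.48, 9.13 and 9.12 CPM. In 19 of the 27 genes each preB library was at least 4 times each proB and pre-proB library.

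**Figure D3:**
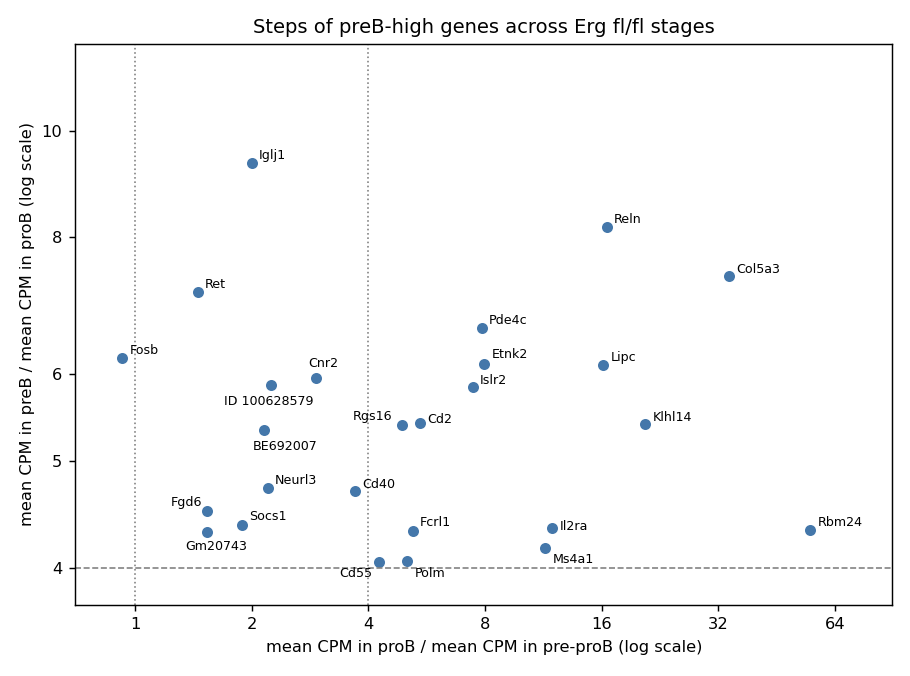
Ratio of mean CPM in preB to proB (vertical axis, log scale) against the ratio in proB to pre-proB (horizontal axis, log scale) for 26 of the 27 genes in Erg fl/fl cells, with the selection threshold of 4 dashed and ratios of 1 and 4 dotted. The 15 genes to the right of the line at 4 were already at least 4 times higher in proB than in pre-proB cells.

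The level in Erg-deficient pre-proB cells, which the selection did not use, was below the preB level in every gene, by widely different amounts. In all 27 genes both Erg-deficient libraries lay below both preB libraries. The genes were chosen for high preB values relative to control pre-proB cells. That separation is therefore a description only, given without the share over all genes. The mutant mean was a median of 3.03% of the preB mean, with a range from 0.0483% (Col5a3) to 49.6% (the identifier 100628579). It was under 1% in 7 genes, between 1% and 5% in 10 and at or above 5% in 10, of which 5 were at or above 10%. The control pre-proB mean was a median of 4.90% of preB. Among the highest by absolute level in the mutant cells were Polm, Neurl3, Fgd6 and Cd2, and Polm had a mean of 21.6 ± 2.14 CPM (SD, n = 2).

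**Figure D4:**
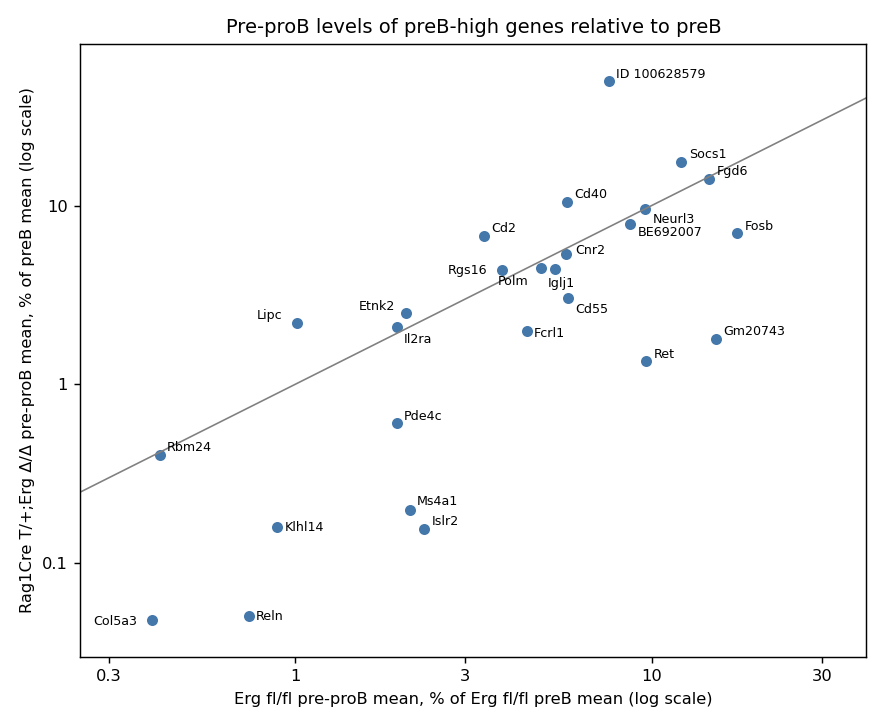
Mean CPM in Erg-deficient pre-proB cells (vertical axis) against that in control pre-proB cells (horizontal axis), each as a percentage of the Erg fl/fl preB mean on a log scale, for 26 of the 27 genes, with the line of equal values. Il2ra, Polm, Neurl3 and Fgd6 lie near the line, while Col5a3 (0.0483%) and Reln (0.0504%) lie lowest.

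The direct comparison of the genotypes in pre-proB cells asks whether loss of Erg altered these genes before the preB stage. Ms4a1 was lower in Erg-deficient cells and the identifier 100628579 was higher. Reln and Col5a3 also passed the threshold as lower, but they entered the test only through the control libraries, and 19 further genes that could be tested were not called. Over all genes, 0.946% of the 13005 genes tested were called lower and 0.215% higher when edgeR's quasi-likelihood p, adjusted by the Benjamini-Hochberg method, was required to be below 0.05. Of the 27 members 23 reached 0.5 CPM in at least 2 of the 4 libraries, the condition for testing. Col5a3, Reln, Klhl14, Pde4c and Ret passed only through the Erg fl/fl libraries, so a low mutant value in these 5 is part of how they entered the test, and the count of 3 lower calls is not read against the share over all genes. Both mutant libraries lay below both control libraries in 11 of the 27 genes and above both in 3, and the groups overlapped in 13. Over all genes tested the shares below and above were 29.5% and 16.1%. The 11 include the 5 genes that passed only through the Erg fl/fl libraries, and the 27 include 4 that were not tested. These counts are therefore not read against the shares. The median log2 difference of all 27 members, computed from CPM with 0.5 added, was -0.111, beside -0.0288 over all genes tested.

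Ms4a1 was at 7.84 and 6.37 CPM in control and 0.239 and 1.11 CPM in mutant libraries, a log2 fold change (log2 change) of -3.36 ± 0.503 (SE, edgeR adjusted p = 0.0403). The groups did not overlap, and 1 mutant library was close to the limit of counting. Reln was at 1.80 and 1.77 CPM in the control and 0.120 and 0.123 CPM in the mutant libraries, and in counts this was 58 against 4 reads. That is 14.7 times more in the controls after scaling to library totals, with a 95% counting interval from 5.45 to 55.8 times, and the mutant level lay below that of 3 counts. Col5a3 was at 2.18 and 1.83 against 0.179 and 0.307 CPM, or 65 against 8 reads. For Reln the log2 change was -3.76 ± 0.459 (SE, edgeR adjusted p = 0.0219) and for Col5a3 -2.97 ± 0.431 (SE, edgeR adjusted p = 0.0353). With no filter on low values, where entry did not depend on the control libraries, the adjusted p-values from edgeR were 0.0112 for Reln and 0.0207 for Col5a3. Without mutant replicate 1 the adjusted p-values from edgeR were 0.180 for Reln, 0.106 for Ms4a1 and 0.203 for Col5a3, and without mutant replicate 2 they were 0.159, 0.0588 and 0.165. With limma-voom in place of edgeR the adjusted p-values were 0.062 for Reln, 0.0814 for Ms4a1 and 0.0878 for Col5a3. With the replicate number as a block, Ms4a1 had an adjusted p of 0.0521 from edgeR.

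Other genes had lower mutant means without passing the test. Among them Ret, Klhl14 and Pde4c entered it only through the control libraries, so their low mutant values are part of how they entered. Gm20743, at 12.3 and 3.95 CPM in control and 0.896 and 1.05 CPM in mutant libraries, had a log2 change of -3.02 ± 0.576 (SE, edgeR adjusted p = 0.0753) and an adjusted p of 3.04e-05 with DESeq2. Ret was at 2.63 and 0.884 against 0.0598 and 0.430 CPM, and Klhl14 at 1.09 and 0.590 against 0.239 and 0.0615 CPM. The adjusted p from edgeR was 0.222 for Ret and 0.217 for Klhl14. Pde4c, Fcrl1 and Cd55 also had both mutant libraries below both control libraries, with log2 fold changes of -1.60, -1.13 and -0.90 and adjusted p-values of 0.276, 0.209 and 0.314 from edgeR. Islr2 was too low for the filter, with 14 reads in the control and 1 read in the mutant libraries, 14.2 times more in the controls after scaling, with a 95% counting interval from 2.16 to 601 times. Mutant replicate 2 had 0 Islr2 reads, which allows up to 0.184 CPM. Fosb, at 1.16 and 3.18 against 1.20 and 0.553 CPM, overlapped between genotypes.

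Several markers of B-lineage cells were also lower in the mutant libraries. The 8 proB markers summed to 2131 and 1212 CPM in the control and 731 and 863 CPM in the mutant pre-proB libraries, and 5 of the 8 were called lower by edgeR, Igll1, Vpreb1, Vpreb2 and Rag1 among them, where 0.946% of all genes were. The 8 markers of immature and mature B cells, which include Ms4a1 and Cd55, summed to 220.2 and 143 against 78.6 and 85.1 CPM. Most of that difference lay in Vpreb3, a relative of Vpreb1, at 109.5 and 37.9 against 0.956 and 1.11 CPM. Without Vpreb3, which was left out after its values were seen, the sums were 111 and 105 against 77.7 and 84.0 CPM. Of the 5 genes of that list that were tested and are no members, edgeR called only Vpreb3 lower. At an unadjusted p below 0.05 from edgeR 3 of these 5 were lower and 0 higher. The log2 fold changes were -0.99 for Fcer2a, -0.41 for Ighd, -0.15 for Tnfrsf13c and 0.03 for Ccr7. In sorted bulk samples fewer cells of a type and less RNA per cell cannot be told apart, and the part of cell composition in the gene differences was not tested.

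A second group had values in mutant pre-proB cells close to those of the controls. Il2ra was at 6.57 and 6.15 CPM in the mutant libraries, and its log2 change was 0.16 ± 0.193 (SE, edgeR adjusted p = 0.789). Polm had a log2 fold change of -0.10 with a standard error of 0.125, Neurl3 of 0.03 with 0.191, Fgd6 of -0.01 with 0.152 and Cnr2 of -0.07 with 0.210. For these 5 genes the differences were smaller than their standard errors, which does not show that they were equal. Iglj1, Rgs16 and BE692007 were also within their standard errors, at log2 fold changes of -0.25, 0.25 and -0.10. The signs of Neurl3, Fgd6, Polm, BE692007, Rgs16 and Iglj1 turned in at least 1 alternative. Rbm24, with 7 reads in the control and 7 in the mutant libraries, and Etnk2, with 8 and 10, were too low to test.

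Among the genes with higher values in the mutant cells, the identifier 100628579 was called. It was at 1.16 and 0.531 CPM in control and 4.30 and 6.70 CPM in mutant libraries, a log2 change of 2.74 ± 0.416 (SE, edgeR adjusted p = 0.0404), so both mutant libraries lay between the earlier Erg fl/fl stages and preB. Its adjusted p from edgeR was 0.0505 with total counts in place of TMM normalization, 0.0620 with the replicate block, 0.153 without mutant replicate 1 and 0.197 without mutant replicate 2, and that from limma-voom was 0.1001. Cd2 was at 3.79 and 4.66 against 7.71 and 9.16 CPM, without overlap, with a log2 change of 1.03 ± 0.204 (SE, edgeR adjusted p = 0.0776). The adjusted p of Cd2 was 0.00869 when all 8 libraries were fitted together and 0.0483 without control replicate 2. Natural killer cells also carry CD2, and NK1.1-positive cells were to be excluded by the sort. Klrb1c, the gene of NK1.1, was still at 11.1 and 7.55 CPM in control and 19.9 and 33.3 CPM in mutant libraries. Its log2 fold change was 1.55 (edgeR adjusted p = 0.0635). Of the 8 natural killer markers edgeR called Ncr1, Gzma and Prf1 higher, against 0.215% of all genes, 7 had higher values at an unadjusted p below 0.05, and DESeq2 called 6 and limma-voom 0. Gzma was at 1.80 and 4.07 against 17.3 and 34.9 CPM and Ncr1 at 2.12 and 2.83 against 14.4 and 24.8 CPM. The 8 summed to 202 and 198 CPM in control and 239 and 356 CPM in mutant libraries, most of it from Klrd1, and the 7 without Klrd1, left out after its values were seen, to 27.5 and 29.8 against 82.4 and 147 CPM. The part of such cells in the Cd2 value was not tested. Lipc, at 5 reads against 11, was too low to test.

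Cd40 and Socs1 were higher in mutant replicate 1 than in the other 3 pre-proB libraries. Cd40 was at 8.01 and 1.35 against 2.06 and 3.13 CPM, and Socs1 at 6.10 and 4.06 against 2.89 and 4.13 CPM. Their log2 fold changes of 0.88 and 0.56 had adjusted p-values of 0.668 and 0.496 from edgeR, and without mutant replicate 1 that of Cd40 was -0.90. In the same library Cd4 was at 1161 CPM against 594 CPM in mutant replicate 2, the MHC class II list summed to 7790.4 against 6784 CPM and the interferon list to 3848 against 3143 CPM, and their part in these values was not tested.

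**Figure D5:**
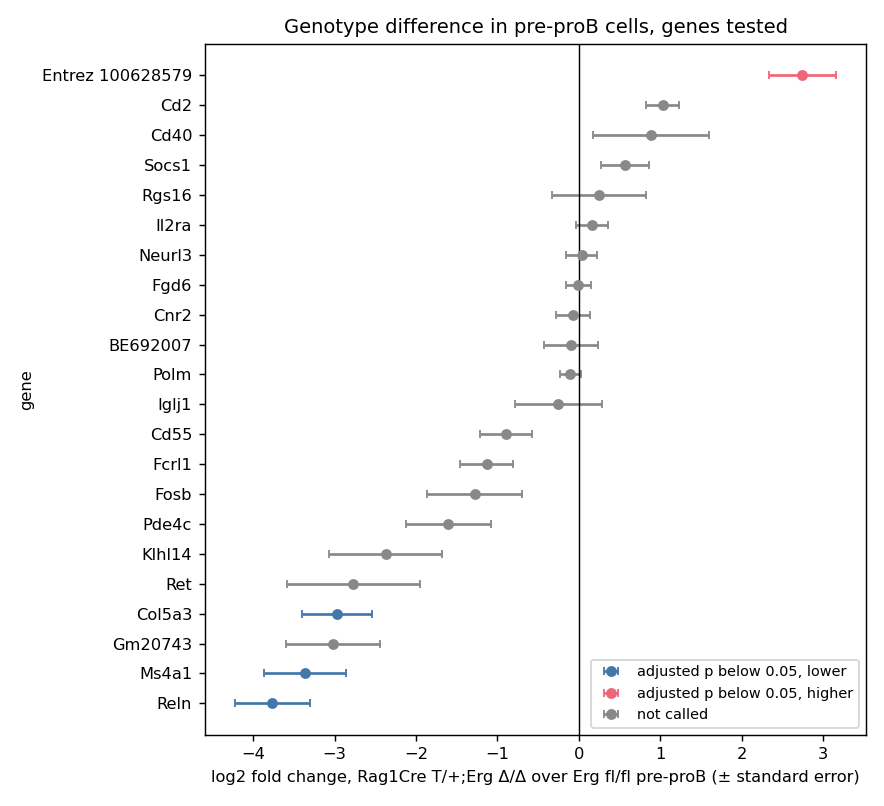
Log2 fold change with its standard error (horizontal axis) between Erg-deficient and control pre-proB cells for 22 of the 23 members tested (vertical axis), 2 libraries per genotype. Reln, Ms4a1 and Col5a3 were called lower and the identifier 100628579 higher, and Il2ra, Polm, Neurl3, Fgd6 and Cnr2 lie within 0.2 of 0. Reln and Col5a3 entered the test only through the control libraries.

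The wider pathways around these genes were followed in lists from which the 27 members were taken out. Between Erg fl/fl proB and preB cells, 29.0% of 13650 genes tested were higher in preB and 29.9% lower at an adjusted p below 0.05 by edgeR. Of the 11 other surface molecules of later B cells, 10 were higher and 0 lower in preB cells, among them Cd38 with a log2 fold change of 1.86, Fcer2a with 1.98 and Tnfrsf13c, the BAFF receptor, with 1.33. The median of that list was 1.04, beside -0.000449 over all genes. Of the 22 B-lineage transcription factors 15 were higher and 1 lower, with Klf2, which restrains proliferation, at 2.16 and Ikzf3, known from small preB cells, at 1.40. Of the 13 genes of cell cycle exit and growth brakes 10 were higher and 2 lower, and of the 18 genes of pre-B-cell receptor and B-cell receptor signalling 12 were higher and 1 lower. All 8 proliferation markers were lower in preB cells, with a median of -0.56. The MHC class II list had 10 of 11 genes higher and 0 lower, the inhibitory receptors and phosphatases 7 of 10 higher and 3 lower, the homing and egress receptors without Cnr2 7 of 11 higher and 3 lower, the survival and death genes 6 of 9 higher and 1 lower, and the interferon and innate sensing genes 9 of 16 higher and 3 lower. The V(D)J recombination genes were divided, with 5 of 11 higher and 4 lower. Rag1 had a log2 fold change of 1.63, whereas Poll, the polymerase lambda related to Polm, had -1.58 and Dntt, the terminal transferase that adds nucleotides at heavy-chain joints, -2.95.

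Between genotypes in pre-proB cells, where 0.946% of all genes tested were called lower and 0.215% higher by edgeR, the same lists had between 0 and 4 calls each. limma-voom called 0 genes in each of them. Of the 10 other surface molecules of later B cells tested, edgeR called 0 in either direction, with 3 lower and 1 higher at an unadjusted p below 0.05, while DESeq2 called 1 lower. Of the 11 other V(D)J recombination genes 2 were called lower, Rag1 (log2 fold change -4.63) and Rag2 (-3.40), while Polm had -0.10. The median of these 11 was -0.75. At an unadjusted p below 0.05 from edgeR 7 of them were lower and 0 higher, and DESeq2 called 3 lower. Of the 18 signalling genes of the receptor 2 were called lower, Cd79a among them, and of the 11 homing and egress receptors without Cnr2 1 was, Cxcr5. At an unadjusted p below 0.05 from edgeR 6 signalling genes were lower and 1 higher, and 3 homing and egress receptors were lower and 0 higher. DESeq2 called 2 signalling genes and 1 homing receptor lower. Of the 22 B-lineage transcription factors 4 were called lower, Ebf1, Pax5, Pou2af1 and Bach2, with log2 fold changes of -6.39, -6.06, -5.20 and -0.74. At an unadjusted p below 0.05 from edgeR 8 of the 22 were lower and 1 higher, and DESeq2 called 7 lower and 1 higher. Of the 11 MHC class II genes 1 was called higher, H2-DMb1 (log2 fold change 0.47), and 8 had higher values at an unadjusted p below 0.05, and DESeq2 called 6 higher and 1 lower. In the lists of inhibitory receptors, cell cycle exit, survival and interferon genes edgeR called 0. At an unadjusted p below 0.05 these had 3, 3, 2 and 1 lower and 1, 1, 1 and 2 higher values, and DESeq2 called 1 lower and 1 higher inhibitory receptor and 1 lower gene of cell cycle exit. Between proB and preB cells Ebf1 had a log2 change of 0.27 and was not called (edgeR adjusted p = 0.476).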

How the data were processed

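RNA-seq covered 4 sorted bone marrow populations of mice with 2 biological replicates per group, in 1 flow-cell lane per the file headers. The authors removed adapters (Trim Galore), mapped reads to mm10 (STAR), and deposited the whole-number counts that featureCounts gave for Entrez genes of the annotation built into Rsubread, without normalization. CASAVA 1.8.2 is named in the submitters' processing notes. The sources used here give neither the version of STAR, nor strand use, nor the treatment of multi-mapping reads, nor the mouse behind each library.

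CPM were computed from column totals. Symbols came from RefSeq (25275 identifiers) and GENCODE M21 (18), and the 1886 identifiers without one (0.571% of counts) remained in the totals. Gene coordinates and exon lengths are those of annotations on GRCm38, the assembly called mm10. Genotypes were compared over the 4 pre-proB libraries with edgeR 4.0.16 in R 4.3.3, using TMM factors (0.985 to 1.02 here), the legacy quasi-likelihood fit and genes that reached 0.5 CPM in at least 2 libraries. Lists were compared between proB and preB over the 6 Erg fl/fl libraries. The study's methods describe populations sorted from 2 mice per genotype, so the Erg fl/fl stages may share animals, which that fit does not model. Benjamini-Hochberg adjustment covered every gene tested in a fit, and calls required an adjusted p below 0.05. Counting intervals are exact binomial intervals at 95% on summed reads, and these and the limit of 3 counts for a gene without reads cover counting error only. Replicates differed by more than sampling noise, the chi-square per degree of freedom being 3.82 to 8.29. The procedure was tested on simulated data of the pre-proB comparison with 12855 genes, where 200 of 200 genes changed 4-fold and 23 unchanged ones were called. The changed genes were drawn only from those above a mean CPM limit. Most members tested, Ms4a1, Reln and Col5a3 among them, did not reach that limit in the pre-proB libraries. Recovery of changes at such low levels was not tested. A single value compared as 2 libraries against 2 has a smallest exact permutation p of 0.33.

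The 27 genes and all lists were chosen with earlier results of these data known. Genes were named if among the 12 highest in preB cells, the 12 with the largest ratio to the earlier stages, those called between genotypes, the 5 highest in Erg-deficient cells, those in a list, and the 3 nearest the fold threshold on either side. The rule passed over genes without a symbol. The identifier 100628579 met 2 of its conditions but has no symbol, and it and Gm20743, Rbm24, Socs1, BE692007 and Rgs16, which met none, were named to account for the remaining members. Values of 1 member are not reported here, though it is included in counts over the 27 genes. Alternatives were DESeq2 1.42.0 size factors, total counts, no filter, a filter at 1 CPM, the DESeq2 test, limma-voom (limma 3.58.1), all 8 libraries in 1 fit, the replicate number as a block, each library left out in turn, and other limits for the selection. Python 3.11.15 and matplotlib 3.10.9 drew the figures.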

Additional observations from a re-analysis of the deposited data

How the results depend on the processing

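The number of genes chosen was 72 with a ratio of at least 3 and 15 with a ratio of at least 5, and lay between 18 and 36 under the other limits tried and between 26 and 30 with a library left out. Genes called lower in Erg-deficient cells numbered 123, and 226 with no filter, 312 with DESeq2, 34 with limma-voom and 373 with all 8 libraries in one fit. Genes called higher numbered 28, and 18 with total counts, 53 with no filter, 88 with DESeq2, 7 with limma-voom and 69 with all 8 libraries. Leaving out 1 library gave 6 to 331 lower and 1 to 70 higher calls. Of the 27 genes, 3 were called lower, 0 by limma-voom (9 at an unadjusted p below 0.05) and 6 with all 8 libraries. Of these 3, Reln and Col5a3 entered the main test only through the control libraries. Called higher was 1 gene, 0 with total counts and by limma-voom (2 at an unadjusted p below 0.05 in each), 2 with all 8 libraries, and 0 to 2 with a library left out. Such fits assume that the library left alone varies as the other groups do. The median log2 fold change of the members tested lay between -0.901 and 0.0881 in those fits, the former without mutant replicate 1, against -0.105 with all libraries. No source used here says that a replicate number marks a mouse. Deviations of same-numbered libraries correlated at between -0.0290 and 0.119 over the 6 pairs of groups, at 0.0177 for control and mutant pre-proB, and at 0.119, 0.0497 and 0.0107 among the Erg fl/fl stages. The replicate block called 218 genes lower and 47 higher, and 2 members lower and 0 higher, where 2 had an unadjusted p below 0.05. Between proB and preB a block added after the data were seen gave 4088 higher and 4181 lower calls, against 3957 and 4078 without it.

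Of 245 values of 22 members under the 12 alternatives, the tested member whose values are not reported being left out, 207 kept their direction and their side of the threshold, 15 lost and 10 gained a call, and 13 in 7 of these 22 genes changed sign. The sign changes, in log2 fold change, were in Fgd6 (0.0006 with limma-voom, 0.005 with all 8 libraries), Neurl3 (-0.002 with total counts) and, with a library left out, in 7 genes, whose ranges over those fits were -0.136 to 0.116 (Fgd6), -0.196 to 0.287 (Neurl3), -0.239 to 0.0337 (Polm), -0.258 to 0.560 (Rgs16), -0.901 to 1.65 (Cd40), -0.685 to 0.0582 (Iglj1) and -0.355 to 0.110 (BE692007). The value of Cd40 below 0 came without mutant replicate 1. The cause was not tested.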
